A study of Mus musculus with 12 samples.

Results

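The genes described here are the switch that lets a cell leave G1 and begin to copy its DNA: the D-type cyclins Ccnd1, Ccnd2 and Ccnd3, their kinases Cdk4 and Cdk6, cyclin E1 (Ccne1), the inhibitor Cdkn1b (p27), the retinoblastoma protein gene Rb1, and the transcription factors E2f1 and E2f8. They were chosen by name as regulators of the G1 to S transition, and 9 of the 10 have a row in the count tables, out of 12643 genes in all; Cdk6 was not analysed here. A D-type cyclin bound to CDK4 or CDK6 phosphorylates the retinoblastoma protein, which then releases E2F factors, and E2F factors switch on cyclin E and the genes of DNA replication. Inhibitors such as p27 hold the kinases back. In mouse beta cells cyclin D2 and CDK4 are known to be needed for growth of the beta cell mass after birth.

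The cells were MIN6, a line from a mouse insulinoma used as a model of the pancreatic beta cell. All were at passage 29, were nucleofected (an electrical transfection) with siRNA, and were harvested after 72 h. The siRNA was directed against Pdx1, the homeodomain transcription factor of beta cells, or was a control named NT. RNA came from a TRAP procedure, which purifies tagged ribosomes with the mRNAs they carry; IP RNA is the ribosome-bound part and total RNA is the RNA it was taken from. That makes 4 groups of 3 libraries: Pdx1 siRNA total RNA, NT siRNA total RNA, Pdx1 siRNA IP RNA and NT siRNA IP RNA. No source used here names the tagged protein or says whether the 3 libraries of a group were separate cultures, so each p-value reflects spread among libraries that may be technical.

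Libraries held 29430690 to 45806807 counts over the 12643 genes. Pdx1 itself was 2.29-fold lower with Pdx1 siRNA in total RNA (log2 fold change −1.20, SE 0.10, adjusted p = 1.0e-07, edgeR) and 2.42-fold lower in IP RNA (−1.27, SE 0.10, adjusted p = 4.3e-08). All 10 beta cell markers looked for were present, with summed levels of 94995 to 101318 counts per 1000000 counts (CPM) in Pdx1 siRNA total RNA, against 105084 to 116201 CPM in NT total RNA. Taken singly, 2 of them were higher with Pdx1 siRNA in total RNA, 4 were lower, Pdx1 among them, and 4 were not past the test. Of 10 markers of other islet endocrine cells 6 were measured, and all 6 were higher with Pdx1 siRNA in total RNA, summing to 31497 to 35175 CPM in Pdx1 siRNA total RNA and 10766 to 13035 CPM in NT total RNA. None of 11 exocrine, ductal, stromal, endothelial and immune markers has a row. The part of these marker differences in the results below was not tested. A set of 4 IP libraries, the 3 of Pdx1 siRNA and NT replicate 3, stood apart from the other 8 at Rpl32l, a gene with a near-identical copy at another locus. It held 33, 37 and 22 counts in the Pdx1 siRNA IP libraries and 1726, 1260 and 29 in the NT IP libraries. No label says how these 4 libraries differ from the rest, and they are called the Rpl32l-low set here after this count alone. None of the 9 genes has such a copy. Each call of a named gene or list given below that changes with this set as a term in the fit is given with it. That term is estimated only from NT IP replicate 3 against NT IP replicates 1 and 2, as all Pdx1 siRNA IP libraries are in the set.

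Levels were scaled with TMM factors, which assume that most genes do not change. The factors were 0.950 to 1.07 in Pdx1 siRNA total RNA, 1.22 to 1.23 in NT total RNA, 0.752 to 0.866 for the Pdx1 siRNA IP libraries and 0.984 to 1.01 for the NT IP libraries. Without them the median log2 fold change of all genes between the siRNAs moved to −0.32 in total RNA and −0.32 in IP RNA, against −0.04 and −0.01 with them, so that every change below is relative to the bulk of the genes. The calls then split into 1485 higher and 6951 lower in total RNA, against 3010 and 3686 with TMM, and into 1692 and 6762 in IP RNA, against 3694 and 3848.

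**Figure D1:**
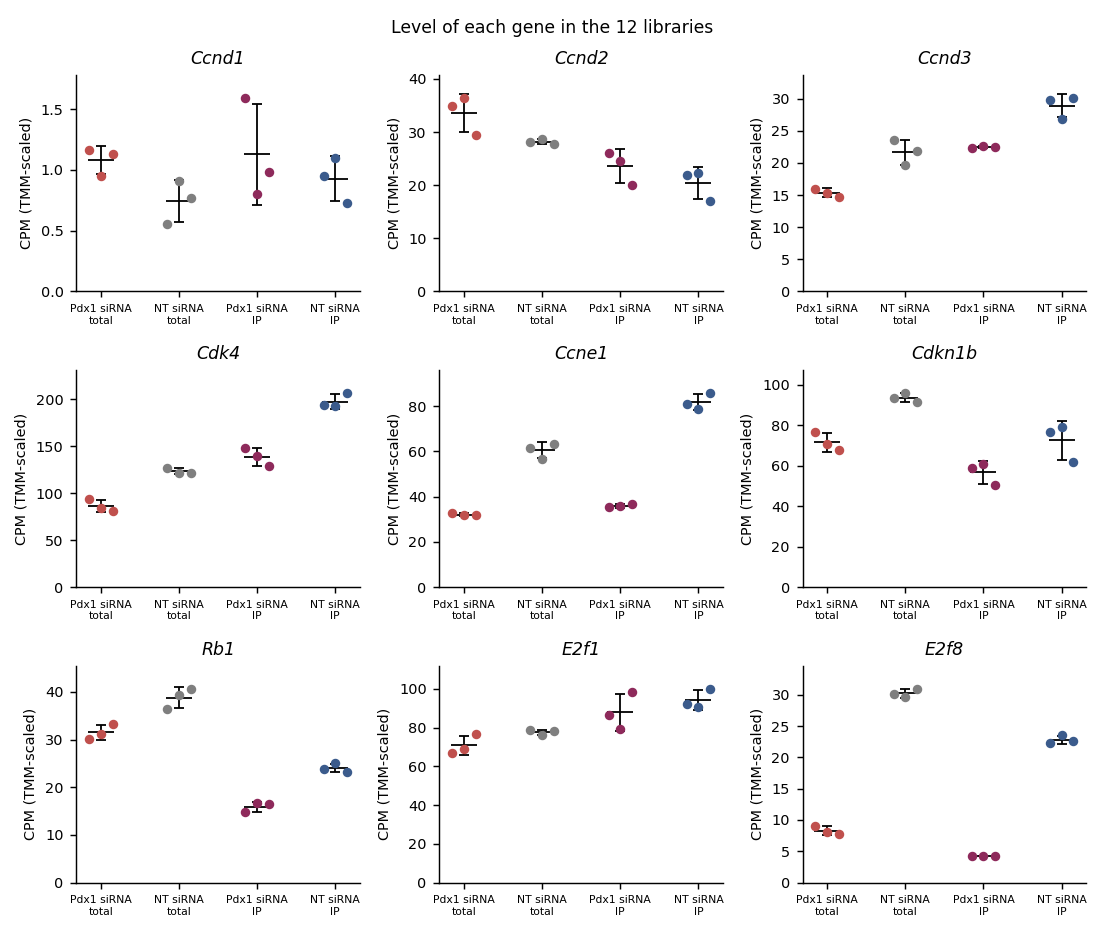
Level of each gene in the 12 libraries, in CPM on TMM-scaled library sizes (linear axes from 0); points are libraries, and the bar and whiskers are the mean and SD of 3 libraries. E2f8 lies at 7.75 to 9.08 CPM in Pdx1 siRNA total RNA and 29.6 to 30.9 CPM in NT total RNA, while the libraries of E2f1 overlap between the siRNAs in both kinds of RNA.

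With Pdx1 siRNA, 6 of the 9 genes fell in total RNA and 0 rose: Ccnd3, Cdk4, Ccne1, Cdkn1b, Rb1 and E2f8. Of all genes tested 29.2% fell and 53% changed in either direction in that comparison. The median log2 fold change of the 9 genes was −0.39, beside −0.04 for all genes. Fold changes ran from −1.87 for E2f8 to 0.51 for Ccnd1, so the group did not move as a block. The 3 libraries of each siRNA did not overlap for 8 of the 9 genes (all but E2f1), as for 58.8% of all genes. Only E2f8 was at least 2-fold lower, a size of fall that 3.63% of all genes reached. In IP RNA the same 6 genes fell and 0 rose, where 30.4% of all genes fell and 59.7% changed. Their median there was −0.36, beside −0.01 for all genes, and both Ccne1 and E2f8 were at least 2-fold lower, as were 5.19% of all genes. The libraries did not overlap for those 6 genes in IP RNA, as for 64.9% of all genes. In these bulk samples fewer cells in a given phase of the cycle and less RNA per cell cannot be told apart.

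**Figure D2:**
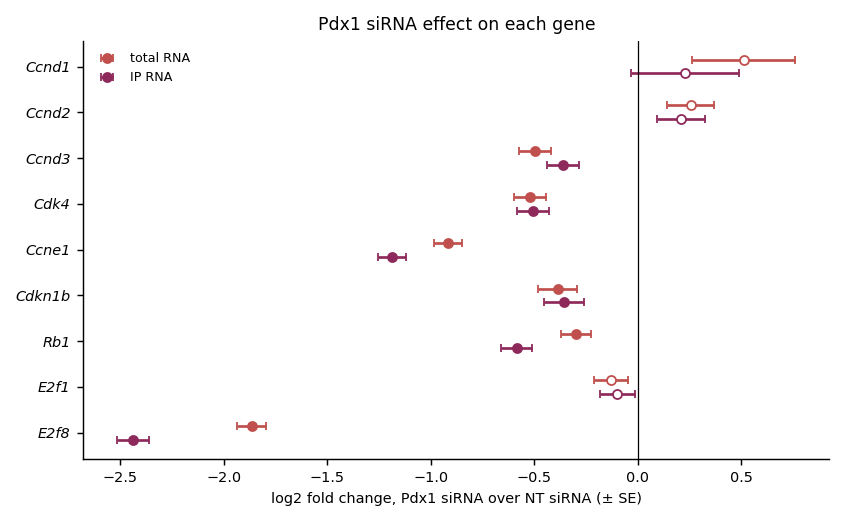
Log2 fold change of Pdx1 siRNA over NT siRNA for each gene in total RNA and in IP RNA; whiskers are the SE, and filled points passed an adjusted p of 0.05 (edgeR) while open points did not. E2f8 is lowest, at −1.87 and −2.44, Ccne1 is next, at −0.92 and −1.19, and the open points are Ccnd1, Ccnd2 and E2f1.

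The 3 D-type cyclins, the partners that activate CDK4 and CDK6, differed from each other in level and in response. Ccnd3 (chromosome 17, 47505051 to 47599683, build mm10) was the most abundant of them per length. It had 16.02, 15.4 and 14.7 CPM in Pdx1 siRNA total RNA, against 23.5, 19.6 and 21.9 CPM in NT total RNA. In IP RNA Ccnd3 had 22.3, 22.6 and 22.6 CPM with Pdx1 siRNA and 29.8, 26.9 and 30.1 CPM with NT siRNA. Every Pdx1 siRNA library lay below every NT library of its kind. Ccnd3 fell 1.41-fold in total RNA (log2 fold change −0.50, SE 0.08, adjusted p = 7.9e-05, edgeR) and 1.29-fold in IP RNA (−0.36, SE 0.08, adjusted p = 0.000865, edgeR). The annotation gives 16.7% of its exonic bases to Bysl as well, on the opposite strand, and the use of strand in counting is not given. Bysl fell in total RNA (−0.24, adjusted p = 0.0129) and had −0.13 in IP RNA (adjusted p = 0.152). The 3 RefSeq transcripts of Ccnd3 held nearly equal counts, 9919, 9904 and 9855 over all libraries, so they were not told apart.

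Ccnd2 (chromosome 6, 127125162 to 127151060) did not follow Ccnd3. It had 34.9, 36.5 and 29.5 CPM in Pdx1 siRNA total RNA, against 28.2, 28.7 and 27.7 CPM in NT total RNA. The lowest Pdx1 siRNA library lay just above the highest NT library. The difference missed the threshold (log2 fold change 0.25, SE 0.11, adjusted p = 0.0681, edgeR). It sat at the threshold: over 23 alternatives its adjusted p ran from 0.0123 to 0.920 and passed 0.05 in 11, among them with the Rpl32l-low set as a term (0.25, adjusted p = 0.0313), without Pdx1 siRNA total replicate 3 (0.34, adjusted p = 0.0286), without Pdx1 siRNA IP replicate 1 (0.28, adjusted p = 0.0426) or 3 (0.28, adjusted p = 0.0252) and without NT IP replicate 3 (0.25, adjusted p = 0.0314). Without scaling factors it was −0.02, which is above the −0.32 of the median gene. In IP RNA Ccnd2 had 26.1, 24.6 and 19.999 CPM with Pdx1 siRNA and 21.9, 22.2 and 17.0 CPM with NT siRNA, and the libraries overlapped (0.21, SE 0.12, adjusted p = 0.139, edgeR). NT IP replicate 3, a library of the Rpl32l-low set, was the lowest of all 12. With that set as a term in the fit, which sets the Pdx1 siRNA IP libraries against NT IP replicate 3, the IP value was 0.47 (adjusted p = 0.0158), and without Pdx1 siRNA IP replicate 3 it was 0.32 (adjusted p = 0.0289). Its adjusted p over the 23 alternatives ran from 0.0158 to 0.578 and passed in 3.

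Ccnd1 (chromosome 7, 144929931 to 144939869) was close to the lower limit of the tables, with 22 to 43 counts in each of the 12 libraries. It had 1.17, 0.947 and 1.13 CPM in Pdx1 siRNA total RNA, against 0.559, 0.907 and 0.766 CPM in NT total RNA. The libraries did not overlap, yet the difference was not past the test at this depth (log2 fold change 0.51, SE 0.25, adjusted p = 0.0973, edgeR). It passed in 1 of 23 alternatives, without Pdx1 siRNA IP replicate 1 (0.54, adjusted p = 0.0485), and its adjusted p over all of them reached 0.419. In IP RNA Ccnd1 had 1.59, 0.803 and 0.987 CPM with Pdx1 siRNA and 0.954, 1.10 and 0.729 CPM with NT siRNA, which overlap (0.23, SE 0.26, adjusted p = 0.467, edgeR). Of its exonic bases 29.4% are also those of LTO1 on the opposite strand, a gene with 13.7 to 16.7 CPM in Pdx1 siRNA total RNA and 13.1 to 14.1 CPM in NT total RNA.

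Because the D cyclins share a library, their makeup does not depend on the scaling. Summed per length, Ccnd3 made up 54.8% to 58.3% of D-type cyclin RNA in the Pdx1 siRNA total libraries, against 66.0% to 70.8% in the NT total libraries. In IP RNA its share was 69.9% to 75.7% with Pdx1 siRNA and 76.9% to 83.2% with NT siRNA. Ccnd2 made up 39.2% to 43.3% in Pdx1 siRNA total RNA and 28.3% to 32.3% in NT total RNA. Its IP share was 22.4% to 27.3% with Pdx1 siRNA and 15.7% to 21.3% with NT siRNA. Ccnd1 reached at most 2.82% in any library. Thus the D-type cyclin RNA held relatively more Ccnd2 with Pdx1 siRNA in both kinds of RNA, and relatively more Ccnd3 in ribosome-bound than in total RNA.

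Cdk4 (chromosome 10, 127063534 to 127067920), the kinase partner of the D-type cyclins, was the most abundant of the 9 per length in each of the 4 groups. It had 93.5, 83.8 and 80.9 CPM in Pdx1 siRNA total RNA, against 127, 122 and 122 CPM in NT total RNA. In IP RNA Cdk4 had 148, 139 and 129 CPM with Pdx1 siRNA and 194, 192 and 206 CPM with NT siRNA. The groups were apart in both kinds of RNA. Cdk4 fell by nearly the same amount in each, 1.43-fold in total RNA (log2 fold change −0.52, SE 0.08, adjusted p = 4.9e-05, edgeR) and 1.42-fold in IP RNA (−0.51, SE 0.08, adjusted p = 4.7e-05, edgeR). Of the exonic bases of its annotated transcript, 31.2% lie on the opposite strand from those of Tspan31, a tetraspanin gene. That transcript ends at 127067920, but the RefSeq gene of the counted row ends at 127067288. The shared part of the counted bases can therefore be smaller and was not measured. Tspan31 moved the other way: it averaged 284 ± 28.4 CPM in Pdx1 siRNA total RNA and 192 ± 21.7 CPM in NT total RNA (SD, n = 3 each; log2 fold change 0.56, adjusted p = 0.000507, edgeR), and it rose by 0.86 in IP RNA (adjusted p = 8.3e-06). If strand was not used in counting, reads of the 2 genes in the shared bases cannot be told apart.

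Ccne1 (chromosome 7, 38097984 to 38107534) encodes cyclin E1, which activates CDK2 late in G1. It had 32.6, 31.8 and 31.9 CPM in Pdx1 siRNA total RNA, against 61.5, 56.8 and 63.5 CPM in NT total RNA. In IP RNA Ccne1 had 35.2, 35.7 and 36.9 CPM with Pdx1 siRNA and 81.2, 78.6 and 85.7 CPM with NT siRNA. The Pdx1 siRNA libraries were close together and far below the NT libraries. Ccne1 fell 1.89-fold in total RNA (log2 fold change −0.92, SE 0.07, adjusted p = 2.2e-08, edgeR) and 2.28-fold in IP RNA (−1.19, SE 0.07, adjusted p = 1.0e-09, edgeR). No other annotated gene shares its exons.

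Cdkn1b (chromosome 6, 134920401 to 134925513) encodes p27, which binds and inhibits cyclin E with CDK2 and helps assemble cyclin D with CDK4. It had 76.6, 70.6 and 67.5 CPM in Pdx1 siRNA total RNA, against 93.6, 95.8 and 91.7 CPM in NT total RNA. In IP RNA Cdkn1b had 58.9, 60.7 and 50.3 CPM with Pdx1 siRNA and 76.7, 79.2 and 61.6 CPM with NT siRNA. NT IP replicate 3 lay far below the other NT IP libraries and only just above the highest Pdx1 siRNA library. It is also the only NT library in the Rpl32l-low set. Cdkn1b fell 1.31-fold in total RNA (log2 fold change −0.39, SE 0.10, adjusted p = 0.0033, edgeR) and 1.28-fold in IP RNA (−0.36, SE 0.10, adjusted p = 0.00535, edgeR). The IP call did not hold with the Rpl32l-low set as a term (−0.12, adjusted p = 0.418, the highest of 23 alternatives, the lowest being 0.000305).

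Rb1 (chromosome 14, 73195502 to 73325822), the retinoblastoma gene whose protein binds E2F factors, had 30.2, 31.2 and 33.2 CPM in Pdx1 siRNA total RNA, against 36.4, 39.3 and 40.6 CPM in NT total RNA. In IP RNA it had 14.7, 16.6 and 16.5 CPM with Pdx1 siRNA and 23.8, 24.99 and 23.2 CPM with NT siRNA. The groups were apart in both. Rb1 fell 1.23-fold in total RNA (log2 fold change −0.30, SE 0.07, adjusted p = 0.00251, edgeR) and 1.502-fold in IP RNA (−0.59, SE 0.08, adjusted p = 9.2e-06, edgeR).

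The E2F factors split. E2f1 (chromosome 2, 154559407 to 154569892), an activator of S phase genes, was not past the test in either kind of RNA. It had 66.9, 69.1 and 76.5 CPM in Pdx1 siRNA total RNA, against 78.5, 76.0 and 78.2 CPM in NT total RNA (log2 fold change −0.13, SE 0.08, adjusted p = 0.207, edgeR). Ribosome-bound E2f1 had 86.8, 79.1 and 98.1 CPM with Pdx1 siRNA and 92.2, 90.7 and 100 CPM with NT siRNA (−0.10, SE 0.08, adjusted p = 0.320, edgeR). The libraries overlapped in both. On unscaled totals E2f1 had −0.41 in total RNA and −0.41 in IP RNA, both past the test, where the median gene had −0.32. E2f8 (chromosome 7, 48866429 to 48881041) encodes an atypical E2F, a repressor that is itself switched on by E2F factors in late G1 and S phase. It had 9.08, 8.08 and 7.75 CPM in Pdx1 siRNA total RNA, against 30.2, 29.6 and 30.9 CPM in NT total RNA. In IP RNA E2f8 had 4.24, 4.18 and 4.21 CPM with Pdx1 siRNA and 22.3, 23.5 and 22.6 CPM with NT siRNA. No gene of the 9 was further apart: E2f8 fell 3.65-fold in total RNA (−1.87, SE 0.07, adjusted p = 3.6e-11, edgeR) and 5.42-fold in IP RNA (−2.44, SE 0.08, adjusted p = 1.3e-11, edgeR). Of its exonic bases 13.5% lie opposite a gene model, Gm2788, that was not analysed here.

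Because levels of single genes move with the scaling, ratios of 2 genes within a library were also taken, chosen after the values were seen and given without a test. The count of E2f8 over that of E2f1 was 0.136, 0.117 and 0.101 in Pdx1 siRNA total RNA, against 0.384, 0.390 and 0.396 in NT total RNA. In IP RNA that ratio was 0.0488, 0.0529 and 0.0429 with Pdx1 siRNA and 0.242, 0.259 and 0.226 with NT siRNA. Ccne1 over Ccnd2 was 0.936, 0.871 and 1.08 in Pdx1 siRNA total RNA and 2.18, 1.98 and 2.29 in NT total RNA, so that reads of cyclin E1 outnumbered those of cyclin D2 in every NT total library and about equalled them in the Pdx1 siRNA total libraries. In IP RNA that ratio was 1.35, 1.45 and 1.84 with Pdx1 siRNA and 3.70, 3.53 and 5.04 with NT siRNA. Reads of cyclin E1 thus outnumbered those of cyclin D2 in every IP library. The Ccne1 transcript has 2000 bases and that of Ccnd2 has 6330, so equal reads are not equal levels. Per length Ccne1 stood above Ccnd2 in each of the 4 groups, at 16.04 against 5.31 CPM per kilobase in Pdx1 siRNA total RNA. The inhibitors moved against each other. Cdkn1a (p21, the p53-induced relative of p27) over Cdkn1b was 1.69, 1.83 and 1.75 in Pdx1 siRNA total RNA, against 0.470, 0.451 and 0.506 in NT total RNA. In IP RNA it was 3.97, 3.60 and 4.22 with Pdx1 siRNA and 0.672, 0.660 and 0.994 with NT siRNA. Every Pdx1 siRNA library held more Cdkn1a than Cdkn1b reads and every NT library fewer. These reads are not divided by transcript length, which is 922 bases for Cdkn1a and 2393 bases for Cdkn1b. The ratios thus describe a shift between the siRNAs and not which of the 2 RNAs was the more abundant.

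**Figure D3:**
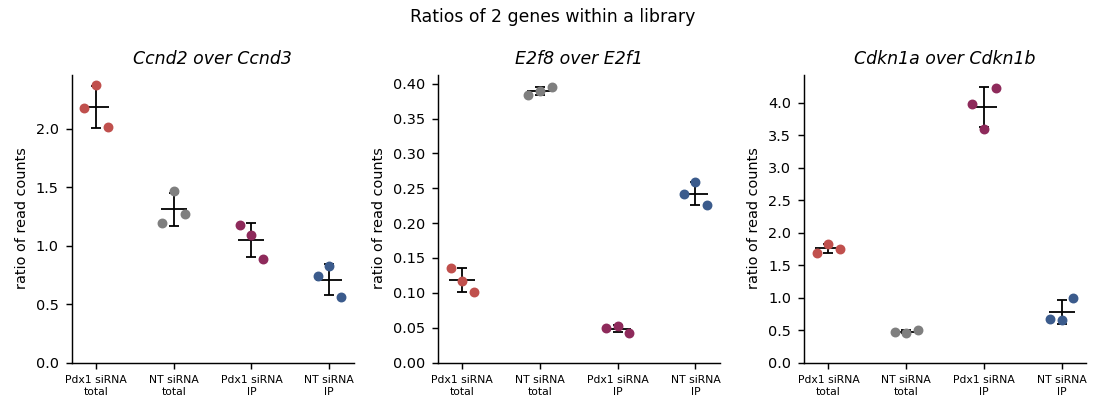
Ratio of read counts of 2 genes within each library (linear axes from 0), with the mean and SD of 3 libraries; the ratios were chosen after the values were seen. The Pdx1 siRNA libraries lie above the NT libraries for Ccnd2 over Ccnd3 (2.01 to 2.37 against 1.196 to 1.47 in total RNA) and for Cdkn1a over Cdkn1b, and below them for E2f8 over E2f1.

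The next question was whether the siRNA effect differed between ribosome-bound and total RNA. That difference was tested as an interaction, which 29 of 12643 genes passed (0.229%, with 0.174% higher and 0.0554% lower). E2f8 alone of the 9 passed, its IP effect minus its total effect being −0.57 in log2 units (SE 0.11, adjusted p = 0.0399, edgeR). The size held but the call did not: over 22 alternatives the difference ran from −0.62 to −0.51 and its adjusted p from 0.00233 to 0.270, with 11 past the test. The call was lost without Pdx1 siRNA total replicate 2 (adjusted p = 0.0820), without NT total replicate 1 (0.125), 2 (0.0626) or 3 (0.0978), without Pdx1 siRNA IP replicate 1 (0.0730), 2 (0.0531) or 3 (0.0812), without NT IP replicate 1 (0.110) or 2 (0.112), with the Rpl32l-low set as a term (0.270) and without scaling factors (0.109). Rb1 (−0.29, SE 0.10, adjusted p = 0.180) and Ccne1 (−0.27, SE 0.09, adjusted p = 0.167) had the same sign without passing. Cdk4, Cdkn1b and E2f1 had differences of 0.01 (SE 0.11), 0.03 (SE 0.14) and 0.03 (SE 0.12).

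Within one siRNA, IP RNA over total RNA describes how strongly an mRNA is represented on the purified ribosomes. With Pdx1 siRNA 8 of the 9 genes differed, 4 higher and 4 lower in IP RNA, where 75.1% of all genes differed (36.3% higher and 38.7% lower). With NT siRNA it was again 4 higher and 4 lower, where 69.7% of all genes differed (33.8% higher and 35.9% lower). The IP and total libraries did not overlap for 8 of the 9 genes with each siRNA (all but Ccnd1), as for 73.5% of all genes with Pdx1 siRNA and 77.5% with NT siRNA, so the counts are close to those of genes at large. Cdk4 was higher in IP RNA, with a log2 fold change of 0.69 with Pdx1 siRNA (SE 0.08, adjusted p = 1.1e-06, edgeR) and of 0.68 with NT siRNA (SE 0.08, adjusted p = 1.9e-06, edgeR). Ccnd3 was higher by 0.55 (SE 0.08, adjusted p = 1.3e-05) and 0.42 (SE 0.08, adjusted p = 0.00017) under the same siRNAs. Cyclin E1 was higher by 0.16 with Pdx1 siRNA (SE 0.07, adjusted p = 0.0374) and by 0.43 with NT siRNA (SE 0.07, adjusted p = 2.8e-05), and E2f1 by 0.31 (SE 0.08, adjusted p = 0.00349) and 0.28 (SE 0.08, adjusted p = 0.00742). On the other side stood Rb1, at −0.98 with Pdx1 siRNA (SE 0.08, adjusted p = 2.1e-08) and −0.69 with NT siRNA (SE 0.07, adjusted p = 8.0e-07), and E2f8, at −0.98 (SE 0.08, adjusted p = 5.1e-08) and −0.41 (SE 0.07, adjusted p = 5.1e-05). Ccnd2 had −0.52 with Pdx1 siRNA (SE 0.11, adjusted p = 0.000762) and −0.47 with NT siRNA (SE 0.11, adjusted p = 0.00187), and Cdkn1b −0.34 (SE 0.10, adjusted p = 0.00541) and −0.37 (SE 0.10, adjusted p = 0.00306). Ccnd1 was not past the test with either siRNA (0.01 and 0.30, adjusted p = 0.960 and 0.314). Rb1, E2f8 and Cdk4 passed with the same sign in all 23 alternatives in both comparisons, while several of the others rest on the scaling or the Rpl32l-low set. None of these alternatives took up reads of genes on the opposite strand. Tspan31, which shares bases with the annotated Cdk4 transcript, was also higher in IP RNA, by 1.22 with Pdx1 siRNA and 0.92 with NT siRNA (adjusted p = 1.0e-07 and 2.8e-06, edgeR). Bysl, which shares bases with Ccnd3, was higher by 0.62 and 0.50 (adjusted p = 2.1e-06 and 2.0e-05, edgeR). The part of such reads in the Cdk4 and Ccnd3 values was not tested.

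**Figure D4:**
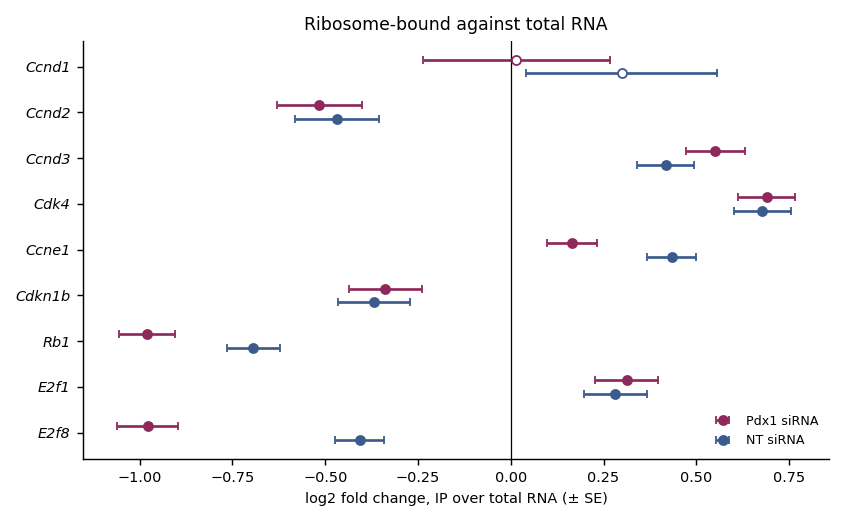
Log2 fold change of IP RNA over total RNA for each gene with Pdx1 siRNA and with NT siRNA; whiskers are the SE, and filled points passed an adjusted p of 0.05 (edgeR) while open points did not. Cdk4 lies to the right at 0.69 and 0.68, Rb1 to the left at −0.98 and −0.69, and Ccnd1 is open in both.

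Besides the shared exons, the limits of these IP to total values are of 2 kinds. The first, the term for the Rpl32l-low set, rests on NT IP replicate 3 alone among the NT libraries. With the Rpl32l-low set as a term, the Pdx1 siRNA values of Ccnd2 (−0.14, adjusted p = 0.535), Ccne1 (0.06, adjusted p = 0.685), Cdkn1b (0.0013, adjusted p = 0.994) and E2f1 (0.18, adjusted p = 0.328) were no longer past the test. Without scaling factors, when the median gene moved to −0.34 with Pdx1 siRNA and −0.31 with NT siRNA, E2f1 had −0.013 with Pdx1 siRNA and −0.0089 with NT siRNA, Ccne1 had −0.16 and 0.14, and Ccnd3 had 0.23 (adjusted p = 0.0503) and 0.13 (adjusted p = 0.260). The small Ccne1 value with Pdx1 siRNA also lost its call with upper-quartile factors (0.12, adjusted p = 0.121), in a fit on the 2 groups alone (adjusted p = 0.0724), without Pdx1 siRNA total replicate 2 (0.0838) or 3 (0.0732), without Pdx1 siRNA IP replicate 1 (0.0528), 2 (0.0611) or 3 (0.0796) and without NT IP replicate 1 (0.0521).

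Levels were compared between genes per transcript length, as CPM per kilobase of transcript (RPKM). The lengths are those of annotated transcripts, whose ends differ for some genes from those of the counted RefSeq gene. For Cdk4 these ends are 127067920 and 127067288, and for Rb1 they are 73195502 and 73192858. The order of genes with close levels was not tested against other lengths. In Pdx1 siRNA total RNA the order of mean levels was Cdk4 (41.9 RPKM), Cdkn1b (29.9 RPKM), E2f1 (25.9 RPKM), Ccne1 (16.04 RPKM), Ccnd3 (7.27 RPKM), Rb1 (6.77 RPKM), Ccnd2 (5.31 RPKM), E2f8 (2.25 RPKM) and Ccnd1 (0.289 RPKM). Neighbours in that order did not overlap between libraries except Ccnd3 and Rb1. In NT total RNA the order was Cdk4 (60.1 RPKM), Cdkn1b (39.1 RPKM), Ccne1 (30.3 RPKM), E2f1 (28.4 RPKM), Ccnd3 (10.3 RPKM), Rb1 (8.33 RPKM), E2f8 (8.19 RPKM), Ccnd2 (4.46 RPKM) and Ccnd1 (0.199 RPKM), with overlaps of Ccne1 with E2f1 and of Rb1 with E2f8. The difference between the orders lay in cyclin E1 and E2f8, which stood above E2f1 and Ccnd2 by mean level with NT siRNA and below them with Pdx1 siRNA. In Pdx1 siRNA IP RNA Cdk4 (67.6 RPKM) was followed by E2f1 (32.2 RPKM), Cdkn1b (23.7 RPKM), Ccne1 (17.97 RPKM), Ccnd3 (10.6 RPKM), Ccnd2 (3.72 RPKM), Rb1 (3.42 RPKM), E2f8 (1.14 RPKM) and Ccnd1 (0.302 RPKM), and Ccnd2 and Rb1 overlapped. In NT IP RNA Cdk4 (96.1 RPKM) was followed by Ccne1 (40.9 RPKM), E2f1 (34.5 RPKM), Cdkn1b (30.3 RPKM), Ccnd3 (13.7 RPKM), E2f8 (6.18 RPKM), Rb1 (5.15 RPKM), Ccnd2 (3.22 RPKM) and Ccnd1 (0.248 RPKM), with no overlap between neighbours.

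Other genes of the same pathway were followed in lists, whose counts are described beside the 29.2% of all genes that fell and the 23.8% that rose in total RNA. In IP RNA 30.4% of all genes fell and 29.2% rose. All members of the list of 22 E2F target genes of S phase entry (replication origin, helicase, nucleotide synthesis and polymerase genes) fell, 22 of 22 in total RNA and 22 of 22 in IP RNA. Their log2 fold changes in total RNA ran from −1.89 to −1.04 with a median of −1.40, and the median in IP RNA was −1.85. Mcm3, a subunit of the replicative helicase, averaged 27.4 ± 3.09 CPM in Pdx1 siRNA total RNA and 87.0 ± 2.24 CPM in NT total RNA (SD, n = 3 each). Cdc6, which loads that helicase at origins, averaged 7.005 ± 0.573 CPM in Pdx1 siRNA total RNA and 22.0 ± 0.666 CPM in NT total RNA. Fold changes in total RNA were −1.67 for Mcm3, −1.65 for Cdc6, −1.55 for the helicase activator Cdc45 and −1.49 for the origin licensing factor Cdt1. The −1.87 of E2f8 lay within the range of this list in total RNA, and the −0.92 of Ccne1 lay just outside it.

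Among the relatives of Rb1 and the E2F factors, 9 of 10 fell in total RNA and 7 in IP RNA, with 0 higher and a median of −0.51 in total RNA. E2f7, the other atypical E2F, had 5.37, 5.86 and 5.85 CPM in Pdx1 siRNA total RNA, against 11.4, 14.8 and 14.03 CPM in NT total RNA (log2 fold change −1.23). Like E2f8 it was apart between the siRNAs in both kinds of RNA, with −1.75 in IP RNA. Rbl1 (p107, a pocket protein relative of Rb1) had −1.01 in total RNA, and the activator E2Fs E2f2 and E2f3 had −0.91 and −0.54. Of 5 genes of the MuvB core, which joins pocket proteins and E2F factors in the DREAM complex, 3 fell in total RNA and 4 in IP RNA, among them Lin9 (−1.33 in total RNA), Lin54 (−1.13) and Rbbp4 (−0.46), of whose exonic bases 35.8% lie opposite other genes. With the Rpl32l-low set as a term, 3 fell in IP RNA, without Lin52.

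The other cyclins and kinases of the step were mixed. Of 7 genes of the E and A cyclins, CDK2 and its activators, 4 fell and 1 rose in both kinds of RNA; with the Rpl32l-low set as a term 3 fell in IP RNA, without Cdc25a. Ccne2, the cyclin E paralog, had 24.3, 20.2 and 21.0 CPM in Pdx1 siRNA total RNA, against 42.7, 42.1 and 43.1 CPM in NT total RNA (log2 fold change −0.97), close to the −0.92 of Ccne1. Cdk2, the kinase partner of both, had 9.20, 8.20 and 6.23 CPM in Pdx1 siRNA total RNA, against 19.0, 18.5 and 19.7 CPM in NT total RNA (−1.28), and the S phase cyclin Ccna2 had −1.73. Of the exonic bases of Ccne2 20.3% lie opposite Ints8, and of those of Ccna2 17.2% lie opposite Exosc9. Cdk7, the kinase that activates CDKs, had 0.41 in total RNA, but 0.14 without scaling factors, when it was not past the test.

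The inhibitors went in both directions. Cdkn1a rose 2.82-fold in total RNA, with 130, 129 and 118 CPM in the Pdx1 siRNA libraries, against 44.0, 43.1 and 46.4 CPM in the NT libraries (log2 fold change 1.497, SE 0.08, adjusted p = 1.2e-09, edgeR). Ribosome-bound Cdkn1a had 234, 219 and 212 CPM with Pdx1 siRNA and 51.6, 52.2 and 61.2 CPM with NT siRNA, a 4.03-fold rise (2.01, SE 0.08, adjusted p = 4.5e-11, edgeR). Cdkn2b (p15), an inhibitor of CDK4 and CDK6, rose by 0.53 in total RNA, whereas its relative Cdkn2c (p18) had −0.70. Cdkn2a, the gene of p16 and of the p53 activator ARF, which were not told apart here, fell in total RNA (−0.25, adjusted p = 0.0255). It had 0.20 in IP RNA (adjusted p = 0.0526). These calls crossed the threshold with upper-quartile factors in both (adjusted p = 0.0623 and 0.0375). That in IP RNA also crossed it with RLE factors (adjusted p = 0.0473, edgeR). Cdkn1c and Cdkn2d were not analysed here.

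Genes that control the turnover of p27 and of G1 cyclins, D-type cyclins included, were also mixed, with 3 lower and 1 higher of 8 in total RNA, and 4 lower with the Rpl32l-low set as a term, when Rbx1 passed. Skp2 and Cks1b, which form the ligase that marks p27 for degradation, fell (−1.08 and −1.60), as did the scaffold Cul1 (−0.33), while Fbxw7, which marks cyclin E for degradation, rose (0.63). Of 12 genes described as regulators of this step in beta cells, 8 fell and 0 rose in total RNA, among them the proliferation factor Foxm1 (−2.03), the Polycomb methyltransferase Ezh2 (−1.32), Myc (−0.69) and Akt1 (−0.45).

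**Figure D5:**
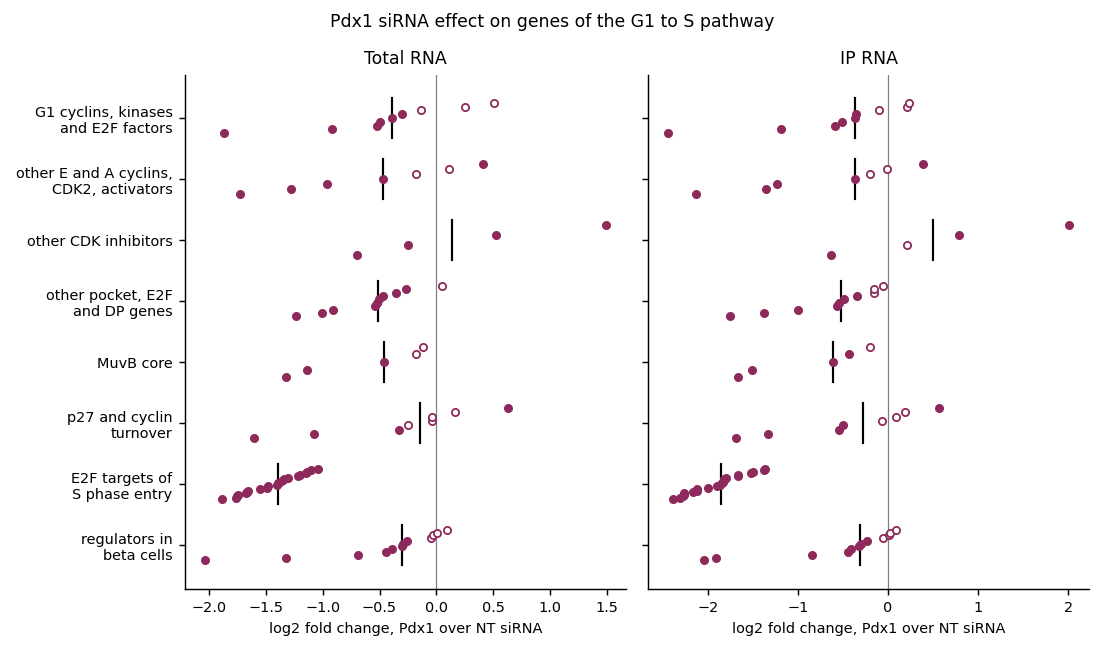
Log2 fold change of Pdx1 siRNA over NT siRNA for the 9 genes and for the pathway lists, in total RNA and in IP RNA; each point is a gene, filled where it passed an adjusted p of 0.05 (edgeR), the black bar is the list's median, and the vertical spread within a list only separates the points. All 22 E2F target genes lie to the left, at −1.89 to −1.04 in total RNA, and Cdkn1a is the inhibitor furthest to the right at 1.497.

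Promoter sequence was looked at because the E2F target list fell together with E2f8 and Ccne1. RefSeq promoter windows (build GRCm38.p6, 250 bases before to 50 after the start that RefSeq gives) were searched on both strands for TTTCCCGC, TTTCGCGC, TTTGCCGC and TTTGGCGC, the 4 versions of the E2F consensus; TTTCGCGC can share bases with its own reverse complement, which does not occur in the windows below. Such a match lay in 744 of all 32851 windows (2.26%), in windows of 480 of 10081 measured genes (4.76%) and of 9 of the 20 E2F target genes with a window (45.0%). It lay in 0 of the 7 windows listed for Ccnd3, Cdk4, Ccne1, Cdkn1b, E2f1 and E2f8. With a match in only 4.76% of measured genes, 0 among so few does not set these genes apart from genes at large. These windows need not be the promoter of the transcript whose span is given above: that of E2f1 is built on a start at 154569426, inside that span, and that of E2f8 on a start at 48881596, upstream of it. The result says nothing of sites outside these windows or with other letters. The windows of E2f8 and Ccne1, which fell the most of the 9 and hold no match, are shown 5′ to 3′. Beside them are those of Cdc6 and Mcm3, which fell with them and do hold a match. The window of Cdc45, a gene of the same target list that fell by −1.55 in total RNA, holds none. Capitals mark the matches. The windows shown span chr7:48881547-48881846 (E2f8, minus strand), chr7:38107441-38107740 (Ccne1, minus strand), chr11:98907901-98908200 (Cdc6, plus strand) and chr1:20820263-20820562 (Mcm3, minus strand).
E2f8: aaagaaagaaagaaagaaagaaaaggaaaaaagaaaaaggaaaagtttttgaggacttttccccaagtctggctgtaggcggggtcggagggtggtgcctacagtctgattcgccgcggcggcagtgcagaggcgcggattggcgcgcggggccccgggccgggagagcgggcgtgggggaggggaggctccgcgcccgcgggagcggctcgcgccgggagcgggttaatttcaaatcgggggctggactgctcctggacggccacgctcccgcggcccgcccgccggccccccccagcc
Ccne1: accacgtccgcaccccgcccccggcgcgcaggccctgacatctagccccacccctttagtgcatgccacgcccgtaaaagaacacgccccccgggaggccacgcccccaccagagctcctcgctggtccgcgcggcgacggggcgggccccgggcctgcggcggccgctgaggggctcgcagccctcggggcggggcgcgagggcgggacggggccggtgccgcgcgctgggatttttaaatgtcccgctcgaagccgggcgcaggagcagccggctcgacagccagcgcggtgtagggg
Cdc6: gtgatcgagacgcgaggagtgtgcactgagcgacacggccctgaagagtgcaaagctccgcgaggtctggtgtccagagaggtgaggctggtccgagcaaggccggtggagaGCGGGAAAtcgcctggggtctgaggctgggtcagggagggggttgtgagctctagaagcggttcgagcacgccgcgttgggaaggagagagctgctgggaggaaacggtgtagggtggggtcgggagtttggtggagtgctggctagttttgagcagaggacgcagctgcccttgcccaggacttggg
Mcm3: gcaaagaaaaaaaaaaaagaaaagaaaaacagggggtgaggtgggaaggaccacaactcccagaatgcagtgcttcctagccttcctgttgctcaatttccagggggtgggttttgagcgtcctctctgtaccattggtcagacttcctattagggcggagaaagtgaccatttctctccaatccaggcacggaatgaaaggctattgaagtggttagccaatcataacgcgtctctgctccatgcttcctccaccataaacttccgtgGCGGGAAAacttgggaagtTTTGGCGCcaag
In the Cdc6 window the match begins at −138 from that window's start at 98908151, read as GCGGGAAA from the other strand; the annotated Cdc6 transcript begins upstream of the window, at 98907801, so the match lies within that gene's span. In that of Mcm3 the matches begin at 19 and 38 bases after the start at 20820312, GCGGGAAA and TTTGGCGC. A match is a description of letters and not a binding site shown in these cells.

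For the genes whose 4 group means spanned at least 1 on the log2 scale, the 3 most similar patterns among the 9937 genes averaging 5 CPM or more were found by the root mean square difference of centred log2 CPM over the 12 libraries. Nearest to E2f8, which spanned 2.83, were Ect2 (0.09), Parpbp (0.11) and Bub1b (0.12). Ect2, a guanine nucleotide exchange factor of cytokinesis, averaged 16.2 ± 1.43 CPM in Pdx1 siRNA total RNA and 59.9 ± 1.31 CPM in NT total RNA, and 7.80 ± 0.800 CPM in Pdx1 siRNA IP RNA and 42.7 ± 2.86 CPM in NT IP RNA (SD, n = 3 each). Bub1b encodes a kinase of the spindle checkpoint. Nearest to Ccne1, which spanned 1.35, were Tedc2 (0.10), Exosc9 (0.10) and the CDK1 inhibitory kinase Pkmyt1 (0.10). Of the exonic bases of Exosc9 23.4% lie opposite those of Ccna2, and of those of Pkmyt1 15.4% lie opposite Paqr4. Nearest to Cdk4, which spanned 1.199, were Nans (0.05), Psmd9 (0.05) and Csrp1 (0.06), and nearest to Rb1, which spanned 1.28, were Vps35 (0.05), Ipo11 (0.08) and Daam1 (0.08). These 12 libraries form 4 groups, so that a small difference describes a like order of the groups and no more.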

How the data were processed

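The authors deposited raw counts of reads per RefSeq transcript for each of the 12 libraries, with no normalization. The submitters' processing notes name TopHat2, featureCounts and mm10, and no source used here gives their versions, the use of strand or the treatment of reads with several matches. Of 17133 rows in each library, 16838 were matched to a mouse symbol through a RefSeq gene table (GRCm38.p6); the other 295 held 0.577% to 0.834% of a library's counts and were left out. Where a gene had several transcripts, that with most counts over all libraries was used. The lowest row total was 141 counts, so genes below some minimum are not analysed here. Libraries correlated within groups at r = 0.985 to 0.998 on the log scale across genes, and no pair was as close as counting noise alone would allow (chi-square at least 5.75 times its degrees of freedom).

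The test was a quasi-likelihood fit in edgeR 4.0.16 (R 4.3.3) of all 12 libraries with a mean per group, TMM factors, and filterByExpr by group, which removed 0 genes. Benjamini-Hochberg adjustment ran over all 12643 genes, with 0.05 as the threshold for a change. SE is the absolute log2 fold change divided by the root of F. CPM uses TMM-scaled library sizes; RPKM divides it by the GENCODE M21 transcript length. Exon overlaps and copies (minimap2 2.31, at least 100 bases at 95% identity) used the same annotation. The counts are of RefSeq rows, whose ends need not match the GENCODE transcripts. The script was first tested on simulated data.

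The genes, lists and tests were chosen with earlier results of these data known. Named besides the 9 genes are Cdkn1a, Ccne2, Cdk2, Rbl1 and E2f7, up to 4 genes per list with the smallest p in total RNA, and the nearest patterns. Alternatives were RLE, upper-quartile and no scaling factors (the last chosen after seeing the data), DESeq2 1.42.0, other filters, sums over transcripts, Ins1 and Ins2 left out, a term for the Rpl32l-low set, a replicate block, the groups of a contrast alone, and leaving out each library. Figures were made with Python 3.11.15.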

Additional observations from a re-analysis of the deposited data

Results flagged for a closer look

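The siRNA effect on E2f8 differed between ribosome-bound and total RNA, with a log2 fold change of −2.44 in IP RNA and −1.87 in total RNA. The difference was −0.57 (SE 0.11, adjusted p = 0.0399, edgeR interaction), past the test by a narrow margin. E2f8 had 4.18 to 4.24 CPM in Pdx1 siRNA IP RNA and 22.3 to 23.5 CPM in NT IP RNA, and 7.75 to 9.08 CPM in Pdx1 siRNA total RNA and 29.6 to 30.9 CPM in NT total RNA. The part of the Rpl32l-low set in it was tested only by a term in the fit, with which the difference was −0.56 (adjusted p = 0.270).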

How the results depend on the processing

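Over the alternatives the falls of Ccnd3, Cdk4, Ccne1, Rb1 and E2f8 with Pdx1 siRNA kept their sign and stayed past the test in total and in IP RNA, as did the fall of Cdkn1b in total RNA; the 6 falls of total RNA were from −0.23 to −2.14 at their extremes. The siRNA calls were 6696 genes in total RNA and 7542 in IP RNA, within 1.5 times of which all alternatives lay. The count of genes whose siRNA effect differed between IP and total RNA, 29, was unstable: 52 with upper-quartile factors, 327 with DESeq2, 54 without Ins1 and Ins2, 5 with the Rpl32l-low set as a term, 11 without scaling factors, and 4 to 571 when any 1 of the 12 libraries was left out (4 without NT total replicate 3 or NT IP replicate 1, 571 without NT IP replicate 3, 383 without Pdx1 siRNA total replicate 1). Of the 9 genes, 0 passed that test with the Rpl32l-low set as a term or without scaling factors, and 0 to 1 when 1 library was left out. For IP against total RNA with Pdx1 siRNA, 4 of the 9 passed with the Rpl32l-low set as a term and 5 without scaling factors, and with NT siRNA 5 passed without scaling factors, against 8. Among values past the test, signs turned for Cdkn1b with the Rpl32l-low set as a term (0.0013 with Pdx1 siRNA), and without scaling factors for Ccne1 (−0.16 with Pdx1 siRNA) and E2f1 (−0.013 with Pdx1 siRNA and −0.0089 with NT siRNA); the cause was not tested. Values that had not passed also turned, among them without scaling factors Ccnd1 for IP against total RNA with Pdx1 siRNA (−0.30), Ccnd1 for the siRNA effect in IP RNA (−0.08), and Ccnd2 for the siRNA effect in total RNA (−0.02) and IP RNA (−0.10). On unscaled totals 16 of 36 levels moved by more than their SD. The replicate numbers are not shown to pair the libraries. Same-numbered deviations correlated between the siRNAs at 0.40, 0.46 and −0.05 in total RNA and at 0.09, 0.00 and 0.08 in IP RNA. Between IP and total RNA they correlated at 0.16, −0.05 and 0.51 with Pdx1 siRNA and 0.15, 0.21 and 0.03 with NT siRNA. In none of these 4 comparisons did every library correlate best with its own number. With NT siRNA each IP library did, while total replicate 3 correlated better with IP replicate 1 (0.08). With the number as a replicate block, 373 genes passed the test of the difference, 7 of the 9 genes passed for each siRNA effect, and Ccnd2 was past the test in total RNA (0.24, adjusted p = 0.0123) and IP RNA (0.21, adjusted p = 0.0313). A fit on the groups of a contrast alone could not be made for the difference, which needs all 4. Depth limits Ccnd1, with 22 to 43 counts per library.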
